A study of Mus musculus with 6 samples.

Results

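The genes described here are 38 enzymes that add or remove methyl groups on histones or DNA, other than those of lysine 27 of histone H3 (H3K27). They were chosen by name: 38 listed symbols were looked up among the 23366 genes of the count table, all 38 were found, and all 38 passed the filter on low counts that left 15731 genes to test. RNA came from cultured cerebellar granule neurons of C57BL/6 mice at postnatal day 7, isolated from the pooled cerebella of a litter on a Percoll gradient and plated in neurobasal medium with B27 and serum. All cultures were infected with lentivirus on day 1 in vitro. The control group carried the empty pLKO.1 vector, which holds no hairpin (n = 3), and the knockdown group carried pLKO.1 with a short hairpin RNA against Kdm6b (n = 3). BDNF was added to certain cultures of the study, which the sources used here do not specify. The labels give 1 hairpin sequence and leave it unstated whether replicates came from separate cultures; p-values then measure only how these libraries vary, which may be technical.

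Histone methylation is written mainly by SET domain and arginine methyltransferases, which take the methyl group from S-adenosylmethionine. It is removed by FAD-dependent enzymes of the LSD family and by JmjC domain enzymes, which like the TET enzymes of DNA use iron, oxygen and 2-oxoglutarate. Methylation of H3K4 marks promoters and enhancers, that of H3K36 and H3K79 marks transcribed genes, and that of H3K9 and of DNA is associated with silencing. In neurons several of these enzymes are dosage-sensitive, and mutations in genes such as Kdm5c, Phf8, Setd5, Ehmt1, Nsd1 and Dnmt3a underlie neurodevelopmental disorders.

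Libraries held 50326298 to 88214069 gene counts, and the pair with the highest depth was replicate 1 (72150433 in the control and 88214069 in the knockdown). Kdm6b, the target, was at 257, 146 and 170 CPM (CPM here being counts relative to the TMM-scaled library total) in control replicates 1 to 3 and at 88.8, 63.3 and 79.8 CPM in the knockdowns, with no overlap. Its log2 fold change was −1.31 (SE 0.25, edgeR adjusted p = 0.216) without the replicate block and −1.28 (SE 0.11, edgeR adjusted p = 0.0282) with it, and an exact permutation test (two-sided) gave p = 0.1, the smallest that 3 against 3 libraries allow. All 12 markers of granule neurons were detected, and their summed level was 4678 to 6698 CPM in controls and 4977 to 7416 CPM in knockdowns. With the block 1 of these 12 rose (Barhl1, log2 fold change 1.63) and 1 fell (Etv1, −1.48). At an unadjusted p of 0.05 with the block, 8 of the 12 passed, against 5361 of the 15731 genes tested. Markers of pericytes and fibroblasts (16 genes) summed to 14080 to 28190 CPM in controls and 4921 to 13040 CPM in knockdowns. With the block 9 of these 16 fell and 0 rose, against 5.4% and 2.58% of all genes tested. Markers of cycling cells (16 genes) summed to 251 to 766 CPM in controls and 121 to 644 CPM in knockdowns. None of these markers was at 0 in all 6 libraries. In bulk RNA fewer cells of a type and less RNA per cell cannot be told apart. The labels number the replicates 1 to 3 in both groups, and libraries of the same number deviated together. Each comparison was therefore fitted without the replicate number and again with it as a block.

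Across the 38 genes the knockdown moved levels little. Every log2 fold change (knockdown over control) was below 0.5 in size in both fits, against 76.7% of the 15731 genes tested in the fit with the block. The median was 0.01 for the 38 genes and 0.02 for all genes tested, and 20 of the 38 values were positive and 18 negative. The median size of the change was 0.12 among the 38 and 0.24 over all genes. The median SE with the block was also lower among the 38 (0.075, against 0.116 over all genes). These shares and sizes thus compare genes measured with unlike precision. Without the block edgeR called 0 of the 38 genes, as did DESeq2 and limma-voom, and at an unadjusted p of 0.05 there were 2, both lower (Phf8 and Ash1l). Over all genes tested that fit called 0.00636%, and 10.6% passed the unadjusted p. With the block 2 of the 38 fell (5.26%), Phf8 and Tet2, and 0 rose, against 7.98% of all genes called in either direction, 5.4% lower and 2.58% higher. The split over all genes depended on scaling: 406 genes rose and 850 fell with TMM factors, and 723 rose and 553 fell with library totals. At an unadjusted p of 0.05 the fit with the block had 5 members higher and 5 lower, against 2493 higher and 2868 lower of the 15731 genes tested. The members' share of calls rests on 2 genes and was near that of all genes (5.26% against 5.4% for lower calls), so it does not set the members apart. In all 3 pairs 12 members were higher and 10 lower (57.9% of members, against 60.2% of all genes tested). When the pair of libraries numbered 1, 2 or 3 was left out of the fit with the block, 0 members were called each time.

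The precision of the data bounds these changes. With the block the 95% interval of the log2 fold change lay within −1 and 1 for all 38 genes and within −0.5 and 0.5 for 32 of them. Without it 34 of the 38 intervals lay within −1 and 1. The exceptions were Kdm3a (−1.04 to 1.13), Kdm4b (−0.86 to 1.51), Jmjd6 (−1.04 to 1.66) and Tet1 (−0.83 to 1.18), the 4 members with the highest ratio of the highest to the lowest library (2.60 to 3.48).

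**Figure D1:**
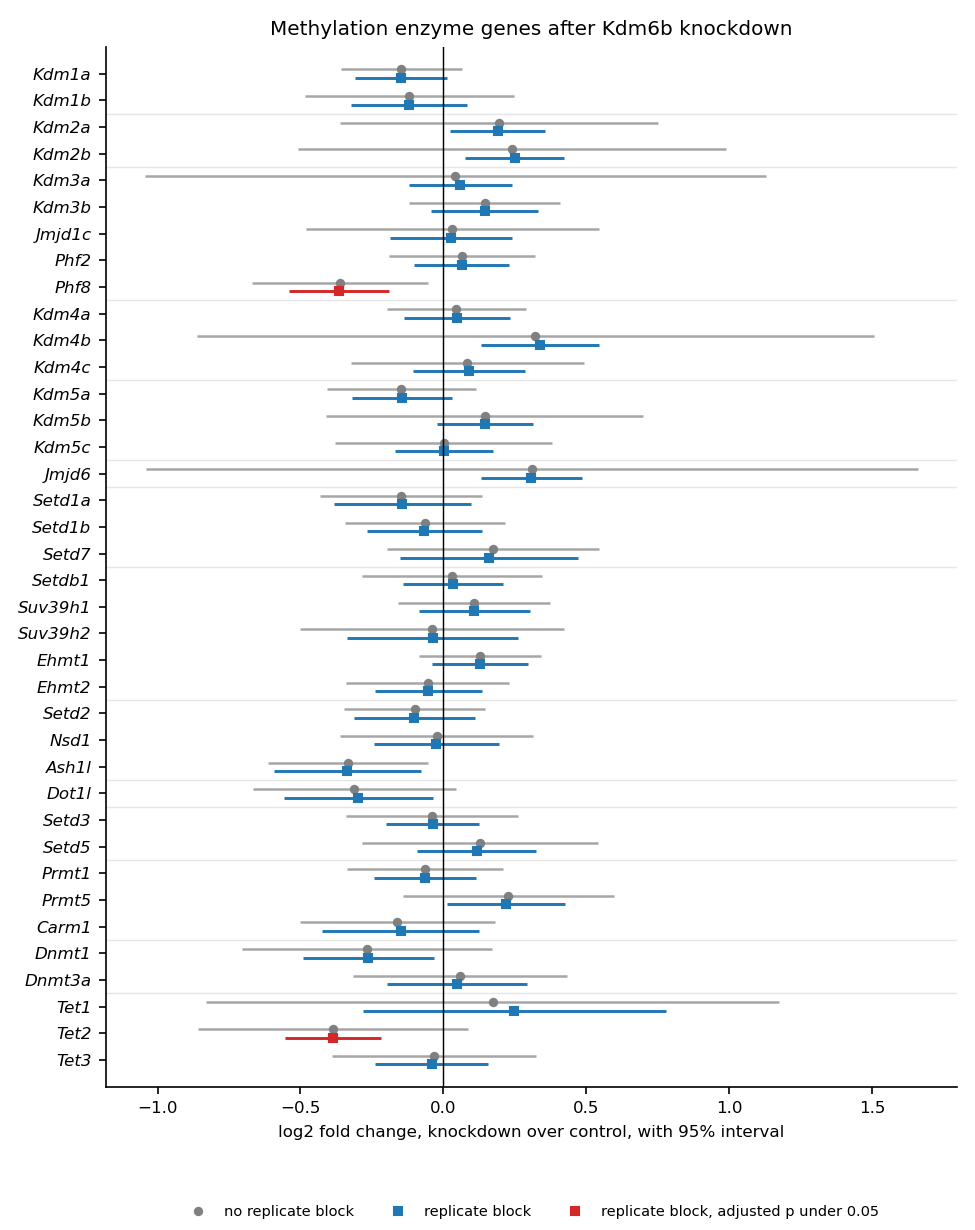
Log2 fold change (knockdown over control) with its 95% interval for each of the 38 genes, grouped by role (thin lines divide the groups). Grey circles are from the fit without the replicate block and squares from the fit with it; the red squares, Phf8 and Tet2, passed an adjusted p of 0.05, and all 38 values lie within −0.5 and 0.5.

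Levels can be compared between genes only per length, here as CPM per kb of annotated exon in GENCODE M21, whose gene models are not those used for counting. On this scale the H3K9 methyltransferase Ehmt2 stood highest in controls (33.9 ± 3.12, SD, n = 3), followed by the arginine methyltransferase Prmt1 (29.8 ± 2.18), Setd7 (28.0 ± 0.623) and Kdm4b (26.1 ± 14.5). Of the 37 pairs of neighbours in this order, 32 had control means closer than the larger of their SDs and so are not separated by these data. Suv39h2, which was not called, was lowest (1.63 ± 0.168), below Tet2 (3.28 ± 0.622) and Phf8 (5.44 ± 0.424). By control mean the 2 members called with the block were among the 3 lowest per length. Phf8 was, however, not separated from Kdm1b (5.56 ± 0.686), which was not called. Within the TET family Tet3 (12.7 ± 0.993) was above Tet1 (7.80 ± 4.08) and Tet2 in controls.

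**Figure D2:**
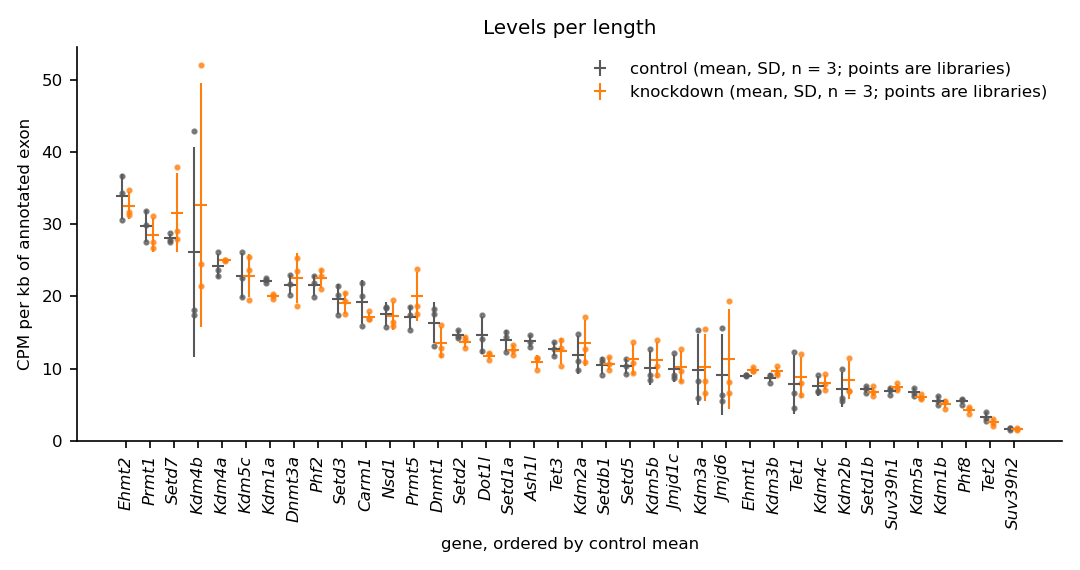
CPM per kb of annotated exon (linear axis from 0) of the 38 genes, ordered by the control mean, with 1 point per library and the mean and SD of each group (n = 3). Ehmt2 is highest and Suv39h2 lowest, and the SD bars are widest for Kdm4b.

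Among the demethylases of H3K9, Phf8 was lower in the knockdown. Phf8 (X-linked, 151520672 to 151633859 in build GRCm38) encodes a JmjC protein that binds H3K4me3 through its PHD finger and removes methyl groups from H3K9 and H4K20. It was at 53.7, 52.2 and 46.2 CPM in control replicates 1 to 3 and at 43.3, 40.3 and 34.7 CPM in the knockdowns. Each knockdown library lay below each control library. The log2 fold change was −0.36 (SE 0.07) with the block (edgeR adjusted p = 0.0467) and −0.36 (SE 0.13) without it (edgeR adjusted p = 0.423). With the block it ranged from −0.39 (edgeR adjusted p = 0.158, replicate 1 left out) and −0.38 (0.0933, replicate 2 left out) to −0.35 (0.116, replicate 3 left out). The related Phf2 was not called (0.06, SE 0.06), and neither were the H3K9 demethylases Kdm3a (0.06, SE 0.07), Kdm3b (0.15, SE 0.07) and Jmjd1c (0.03, SE 0.08), all with the block.

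The other member called with the block was Tet2 (chromosome 3, 133463679 to 133545139 in GRCm38), which oxidises 5-methylcytosine and, unlike its relatives Tet1 and Tet3, has no CXXC DNA-binding domain of its own. Tet2 was at 66.7, 46.0 and 53.4 CPM in controls, against 50.6, 35.3 and 41.2 CPM in knockdowns. The groups overlapped, since the replicate 1 knockdown lay above the replicate 2 control, but the differences within pairs were close to each other at −0.40, −0.38 and −0.37 (log2). The log2 fold change was −0.39 (SE 0.06) with the block (edgeR adjusted p = 0.0417) and −0.39 (SE 0.19) without it (edgeR adjusted p = 0.531). Leaving out replicate 1, 2 or 3 in the fit with the block gave −0.38 (edgeR adjusted p = 0.165), −0.40 (0.0740) and −0.40 (0.0888). Tet1 varied between libraries, at 191, 69.0 and 102 CPM in controls, against 185, 124 and 98.6 CPM in knockdowns, and its difference of 0.85 in pair 2 was not seen in pairs 1 and 3 (−0.05 in both). Tet1 (0.25, SE 0.20) and Tet3 (−0.04, SE 0.08) were not called with the block. Whether Tet2 differed from Tet1 or Tet3 in its response was not tested.

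Both called members hold 7-base words of the hairpin in their longest annotated 3′ UTR (GENCODE M21, GRCm38), which is why these sites are shown. All 15 words of 7 bases in the hairpin were searched, and 25 of the 38 members held at least 1 of them: Phf8 held 5, Tet2 4, and Kdm5a, which was not called, 10. The 2 words shown were picked from these 15. The strand given in the labels has 21 bases, printed 5′ to 3′ with the word in capitals. The word at bases 14 to 20 would pair with bases 2 to 8 of a guide that is the exact reverse complement of this strand, and the word at bases 8 to 14 was chosen with earlier results of these data known. All were searched on the sense strand, and the 2 shown overlap by 1 base.
hairpin, bases 14 to 20: gttcgttacaagtGAGAACTc
hairpin, bases 8 to 14: gttcgttACAAGTGagaactc
Phf8, X:151632299-151632305, plus strand: cctggcacattGAGAACTatggcccctgc
Tet2, 3:133464049-133464055, minus strand: ccatactcgatACAAGTGcttctgcttgg

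At both sites the match runs 1 base further on the 5′ side, to 8 bases. It also runs to 8 bases in Kdm2a, Kdm5b and Setd7 and to 9 in Prmt5, none of which was called. GAGAACT was found in 6 of 38 members (15.8%) and in 13.0% of the 14020 genes tested with a 3′ UTR, and ACAAGTG in 5 of 38 (13.2%) and in 11.4%. Of the members with GAGAACT, Phf8 alone was called, and with the block the log2 fold changes of the others were −0.14 (Kdm5a), 0.15 (Kdm5b), 0.16 (Setd7), −0.02 (Nsd1) and 0.22 (Prmt5). Of those with ACAAGTG, Tet2 alone was called, beside 0.19 (Kdm2a), −0.07 (Setd1b), −0.30 (Dot1l) and −0.04 (Setd3). The part of such matches in the calls was not tested.

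Among enzymes that erase H3K4 methylation, those of the LSD and Kdm5 families had log2 fold changes of at most 0.15 in size with the block. Kdm1a (LSD1), the FAD-dependent demethylase of the CoREST complex, was at 117, 113 and 115 CPM in controls, against 105, 104 and 102 CPM in knockdowns. The groups did not overlap, yet the difference was small (log2 fold change −0.15, SE 0.06 with the block, edgeR adjusted p = 0.169). Its relative Kdm1b had −0.12 (SE 0.08). Kdm1a and Kdm1b were each lower in all 3 pairs, and the groups of Kdm1b overlapped. Kdm5a, an H3K4me3 demethylase, was at 103, 87.6 and 93.4 CPM in controls, against 90.7, 84.4 and 81.7 CPM in knockdowns (−0.14, SE 0.07), lower in all 3 pairs but with overlapping groups. Kdm5b had 0.15 (SE 0.06) and the X-linked Kdm5c 0.00 (SE 0.07). None of these 5 genes was called in either fit. Kdm2a and Kdm2b, grouped here as demethylases of H3K36 and H3K4, are given next.

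The JmjC genes Kdm2a, Kdm2b, Kdm4b and Jmjd6 leaned higher within pairs without passing the edgeR test with TMM factors. Kdm2a and Kdm2b act on H3K36 and bind unmethylated CpG islands through a CXXC domain. Kdm2a was at 213, 160 and 141 CPM in controls, against 247, 184 and 157 CPM in knockdowns (0.19, SE 0.06 with the block, edgeR adjusted p = 0.117), and Kdm2b had 0.25 (SE 0.07, edgeR adjusted p = 0.0783). Kdm4b, a demethylase of H3K9me3, was at 210, 85.2 and 88.6 CPM in controls, against 255, 120 and 105 CPM in knockdowns (0.34, SE 0.08 with the block, edgeR adjusted p = 0.0652). Jmjd6, which hydroxylates lysines in splicing factors and whose demethylase activity is disputed, was at 73.3, 29.4 and 26.1 CPM in controls, against 90.8, 37.98 and 31.0 CPM in knockdowns (0.31, SE 0.07, edgeR adjusted p = 0.0589). In all 4 genes each pair was higher in the knockdown, and the groups overlapped since replicate 1 was above replicates 2 and 3 in both groups. A rise in all 3 pairs was seen in 12 of the 38 members and in 4995 of the 15731 genes tested. The 12 also include the JmjC genes Kdm3a, Kdm3b, Phf2, Kdm4c and Kdm5b. DESeq2 with the block called Kdm4b and Jmjd6 higher and did not call Kdm2a or Kdm2b. With library totals in place of TMM factors Kdm4b was called higher (0.41, edgeR adjusted p = 0.0482) and Phf8 and Tet2 were not (edgeR adjusted p = 0.0947 and 0.0924). Kdm4a (0.05, SE 0.07) and Kdm4c (0.09, SE 0.08) were closer to 0.

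**Figure D3:**
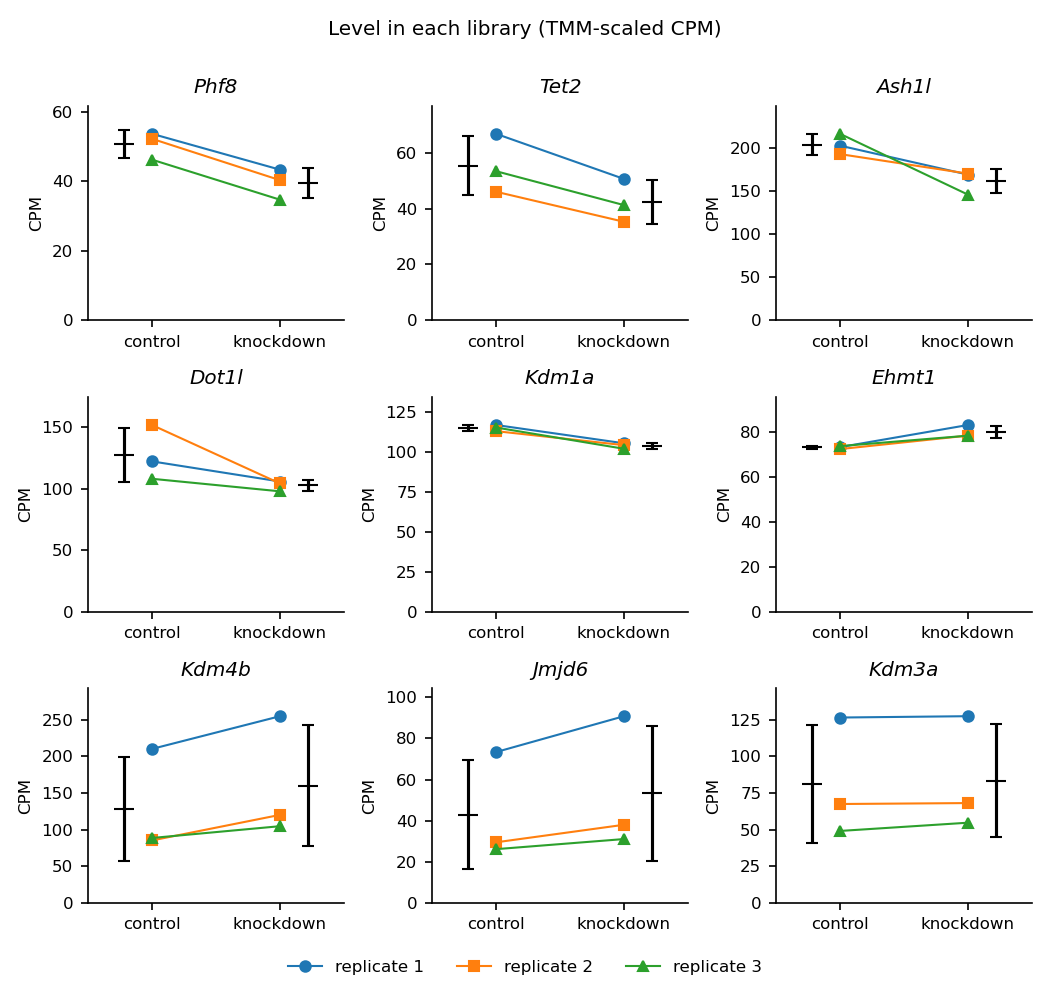
TMM-scaled CPM (linear axes from 0) of 9 members in each library, where lines connect libraries that share a replicate number, with black bars for the mean and SD of each group (n = 3). Phf8, Ash1l, Dot1l, Kdm1a and Ehmt1 do not overlap between groups, Tet2 is lower in each pair, and in Kdm4b, Jmjd6 and Kdm3a replicate 1 stands above replicates 2 and 3 in both groups.

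Of the methyltransferases of active chromatin, Ash1l and Dot1l were lower in every knockdown library than in any control library. Ash1l, an H3K36 methyltransferase, was at 203, 193 and 217 CPM in controls, against 170, 171 and 146 CPM in knockdowns (log2 fold change −0.34, SE 0.10 with the block, edgeR adjusted p = 0.0917; 0.407 without it). Dot1l, the H3K79 methyltransferase, was at 122, 152 and 108 CPM in controls, against 106, 104 and 97.8 CPM in knockdowns (−0.30, SE 0.10, edgeR adjusted p = 0.117 with the block). Neither passed the edgeR test over all genes. DESeq2 with the block called Ash1l lower and did not call Dot1l. The H3K36 enzymes Setd2 (−0.10, SE 0.08) and Nsd1 (−0.02, SE 0.08) were not called.

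The H3K4 methyltransferases showed no call. Setd1a, the catalytic subunit of a COMPASS complex, was at 97.8, 102 and 83.3 CPM in controls, against 89.97, 80.4 and 85.1 CPM in knockdowns, with overlapping groups (−0.14, SE 0.09 with the block); another gene model, Gm49388, covers 51.8% of its exon bases on the same strand. Setd1b had −0.07 (SE 0.08). Setd7, a lysine monomethyltransferase with many non-histone substrates, had 0.16 (SE 0.12), and its spread came from knockdown replicate 2 (410 CPM, against 298 to 314 CPM in the other 5 libraries). Setd5, which has no settled histone substrate, was at 208, 169 and 190 CPM in controls, against 250, 173 and 197 CPM in knockdowns (0.12, SE 0.08), and the actin histidine methyltransferase Setd3 had −0.04 (SE 0.06).

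H3K9 methyltransferases were not called. Their 5 log2 fold changes with the block ran from −0.05 (Ehmt2, SE 0.07) to 0.13 (Ehmt1, SE 0.06), with Suv39h1 at 0.11 (SE 0.08), Setdb1 at 0.03 (SE 0.07) and Suv39h2 at −0.04 (SE 0.12). Ehmt1 (GLP), the partner of Ehmt2 (G9a) in the enzyme that places H3K9me2, was at 73.3, 72.4 and 73.8 CPM in controls, against 83.2, 78.5 and 78.4 CPM in knockdowns. Its groups did not overlap, all knockdowns being higher, and the change was not called (edgeR adjusted p = 0.226 with the block). With Kdm1a, Phf8, Ash1l and Dot1l, all lower, this made 5 of 38 members with non-overlapping groups (13.2%), against 16.7% of all genes tested.

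Arginine methyltransferases were not called either. Prmt5, which places symmetric dimethylarginine, was at 73.3, 68.8 and 60.8 CPM in controls, against 94.3, 73.9 and 69.3 CPM in knockdowns, higher in each pair with overlapping groups (0.22, SE 0.08 with the block, edgeR adjusted p = 0.132). Prmt1 (−0.06, SE 0.07) and Carm1 (−0.15, SE 0.11) place asymmetric dimethylarginine. Exons of Carm1 overlap a gene on the opposite strand over 21.1% of their bases, as do those of Kdm3b over 24.6%, and 15 of the 38 members have some such overlap. The sources used here do not give the strand setting of the counting, so these levels are uncertain, by an amount that was not measured.

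Dnmt1, the maintenance DNA methyltransferase that copies CpG methylation after replication, was at 96.6, 130 and 135 CPM in controls, against 87.8, 94.7 and 118 CPM in knockdowns. It was lower in each pair, with overlapping groups (log2 fold change −0.26, SE 0.09 with the block, edgeR adjusted p = 0.116; 0.623 without it). Of the 16 markers of cycling cells 3 fell with the block, against 5.4% of all genes tested, and 16 had a negative log2 fold change. Their levels summed to 251, 655 and 766 CPM in controls, against 121, 313 and 644 CPM in knockdowns. In both groups replicate 1 was thus lowest and replicate 3 highest for the sum of these markers as for Dnmt1. In the test of the replicate number described below, Dnmt1 did not pass (edgeR adjusted p = 0.0699), while 15 of the 16 markers did. Uhrf1, which brings Dnmt1 to hemimethylated DNA (13.3, 45.5 and 42.5 CPM in controls, against 4.35, 18.1 and 33.7 CPM in knockdowns; −1.08, SE 0.27), and the helicase gene Hells (−0.85, SE 0.21) had lower values in each pair and were not called (edgeR adjusted p = 0.0683 and 0.0675 with the block). The part of cycling cells in these values was not tested. Dnmt3a, the de novo methyltransferase of postmitotic neurons, was at 337 to 382 CPM in controls and 312 to 422 CPM in knockdowns (0.05, SE 0.09).

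Levels of several members also differed by replicate number. In a test of the replicate number in the fit with the block, run after the data were seen, 8 of the 38 genes passed (21.1%, against 26.1% of all genes tested). Each of the 8 was higher in replicate 1 than in replicates 2 and 3, as were 42.1% of the 4100 genes that passed. Passing with this pattern thus held for 21.1% of members and 11% of all genes tested. They were Jmjd6 (edgeR adjusted p = 0.0107), Kdm3a (0.0107), Kdm4b (0.0121), Kdm2b (0.0139), Kdm2a (0.0198), Kdm5b (0.0203), Tet2 (0.0266) and Jmjd1c (0.0380). All 8 are among the 17 JmjC and TET dioxygenases of the set. Of the 17 protein methyltransferases, 2 DNA methyltransferases and 2 FAD-dependent demethylases, 0 passed. These classes were set side by side after the data were seen, and the difference between them was not tested. Among the companion genes described below, 3 of 12 other JmjC genes passed the same test. The counts were 3 of 22 for other lysine methyltransferases and 0 of 9 for other arginine methyltransferases and their partners.

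The size of this replicate difference was similar in both groups. Jmjd6 in replicate 1 was 2.64-fold the mean of the other replicates in controls and 2.63-fold in knockdowns, Kdm4b 2.42-fold and 2.27-fold, and Kdm3a 2.17-fold and 2.08-fold. Kdm3a, an H3K9 demethylase, was at 127, 67.5 and 49.1 CPM in controls, against 127, 68.1 and 54.7 CPM in knockdowns, so that the pairs nearly coincided. Highest over lowest library exceeded 2-fold in 5 of 38 members (13.2%, against 42.5% of all genes tested).

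Kdm3a and Kdm4b are known targets of hypoxia-inducible factor, and 12 other oxygen-regulated genes were looked at after this pattern was seen. In the same test 11 of the 12 passed, all with replicate 1 highest, and Adm did not (edgeR adjusted p = 0.126). Of the 15731 genes tested 4100 passed, 1726 with replicate 1 highest and 1960 with replicate 1 lowest. The mitophagy receptor gene Bnip3 was at 734, 111 and 235 CPM in controls, against 626, 71.7 and 188 CPM in knockdowns. The growth factor gene Vegfa was at 713, 198 and 206 CPM in controls, against 664, 126 and 244 CPM in knockdowns. Replicate 1 was thus highest for these genes in both groups, and edgeR called 0 of the 12 between knockdown and control in either fit (at an unadjusted p of 0.05 there were 0 without the block and 2 with it). Replicate 1 was also the deepest pair. Cell type markers moved with the replicate number in the same test: 15 of 16 markers of cycling cells passed, all lowest in replicate 1, as did 11 of 12 of astrocytes and Bergmann glia (1 highest and 5 lowest there), 10 of 12 of the oligodendrocyte lineage (4 and 2), 9 of 16 of pericytes and fibroblasts (2 and 7), 7 of 9 of Purkinje cells and interneurons (0 and 6), 6 of 10 of endothelial cells (3 and 3), 2 of 12 of microglia (0 and 1) and 6 of 12 of granule neurons (4 and 1). The part of oxygen supply, depth or cell makeup in the levels of the 8 members was not tested.

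**Figure D4:**
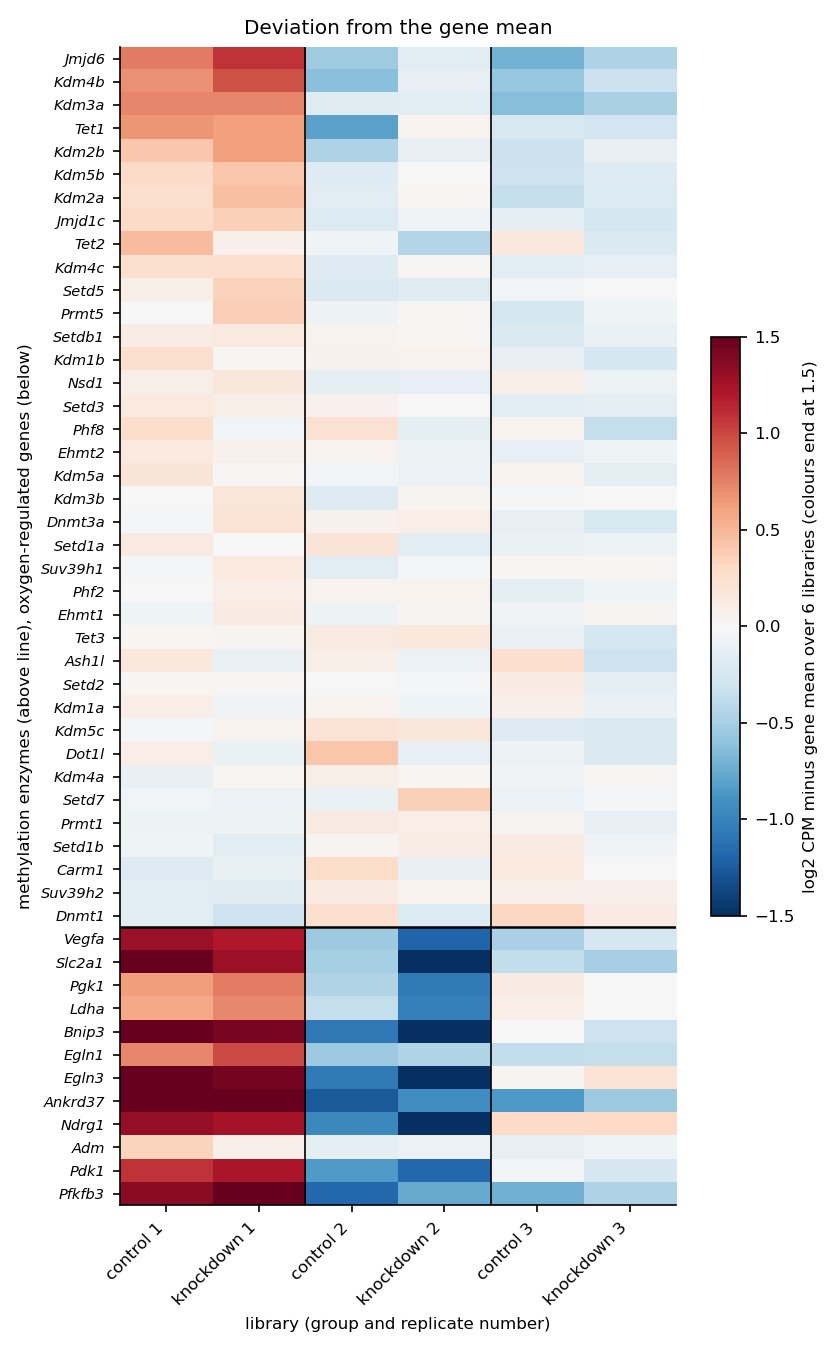
Log2 CPM of each library minus the gene's mean over the 6 libraries, for the 38 members ordered by their level in replicate 1 (above the line) and 12 oxygen-regulated genes (below it), with libraries of the same replicate number side by side. The top rows, led by Jmjd6, Kdm4b and Kdm3a, and most oxygen-regulated genes are red in both replicate 1 libraries.

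The promoters of Kdm3a and Jmjd6 are shown because these genes stood out by replicate number, with the cores of the hypoxia response element in capitals. The cores searched were ACGTG and GCGTG on both strands, in the 250 bases before to 50 after the start site (RefSeq, GRCm38.p6), and a match on either strand counts. Kdm3a has 3 promoters in the table, of which the 1 shown holds a core, and Jmjd6 has 1.
Kdm3a, chr6:71632868-71633167, minus strand: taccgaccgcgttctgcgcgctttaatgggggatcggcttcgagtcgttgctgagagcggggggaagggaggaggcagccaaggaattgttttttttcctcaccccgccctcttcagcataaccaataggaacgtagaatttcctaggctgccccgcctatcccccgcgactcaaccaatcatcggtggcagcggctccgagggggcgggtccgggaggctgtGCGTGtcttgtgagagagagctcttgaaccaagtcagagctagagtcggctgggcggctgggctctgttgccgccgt
Jmjd6, chr11:116843400-116843699, minus strand: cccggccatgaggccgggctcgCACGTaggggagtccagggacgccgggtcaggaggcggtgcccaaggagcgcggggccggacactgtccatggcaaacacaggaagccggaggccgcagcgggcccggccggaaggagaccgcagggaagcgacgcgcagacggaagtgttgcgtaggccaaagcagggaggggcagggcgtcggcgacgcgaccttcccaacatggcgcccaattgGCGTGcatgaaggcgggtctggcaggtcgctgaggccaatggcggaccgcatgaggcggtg

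These letters are frequent in promoters. Of 30 members with a listed promoter, 23 held a core (76.7%), against 46.7% of all 27025 genes there. Those 27025 genes include ones outside the 15731 tested, whereas all 38 members were tested, so these shares are from unlike sets. A gene counts if any of its listed promoters holds a core. All 6 of the members that passed the replicate test and were in the table held one, as did 17 of the 24 others (70.8%); Tet1 held none. A match describes the letters only.

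Companion genes of these enzymes came from lists drawn up with earlier results known, and none was called without the block. With the block 81.8% to 100% of each list had a log2 fold change below 0.5 in size, against 76.7% of all genes tested. The median SE in that fit was 0.071 to 0.114 by list, against 0.116 over all genes tested. Some changes were larger than that of any of the 38 enzymes. Over all 15731 genes tested 7.98% were called with the block. At an unadjusted p of 0.05, 1661 of these genes passed without the block and 5361 with it. Among 22 other lysine methyltransferases 1 rose with the block (median log2 fold change 0.05), the H4K20 methyltransferase Suv420h2 (47.9, 28.1 and 26.0 CPM in controls, against 67.5, 36.9 and 40.1 CPM in knockdowns; 0.50, SE 0.08, edgeR adjusted p = 0.0381). Among 9 other arginine methyltransferases and their partners 1 rose (median 0.00), Prmt2 (38.3, 35.2 and 35.3 CPM in controls, against 54.3, 55.3 and 45.9 CPM in knockdowns; 0.51, SE 0.08, edgeR adjusted p = 0.0403), whose groups did not overlap. Of 12 other JmjC genes 0 were called (median 0.11); at an unadjusted p of 0.05 there were 1 without and 3 with the block, and Hif1an, an asparagine hydroxylase that restrains hypoxia-inducible factor, had the smallest p (0.36, SE 0.07, edgeR adjusted p = 0.0529 with the block). Of 11 subunits of H3K4 methyltransferase complexes 0 were called (median 0.13), although 4 were higher at an unadjusted p of 0.05 in each fit. Over all 15731 genes tested, 748 were higher at that threshold without the block and 2493 with it. Bod1 had the smallest p without the block (0.33, SE 0.09 with the block, edgeR adjusted p = 0.0886).

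Among 18 CoREST and H3K9 partners (median 0.06), Gse1 fell with the block. It was at 65.5, 127 and 86.8 CPM in controls, against 44.3, 81.2 and 69.1 CPM in knockdowns (−0.52, SE 0.09, edgeR adjusted p = 0.0423), with overlap. Among 23 tested partners and readers of DNA methylation 0 were called (median 0.04). At an unadjusted p of 0.05 there were 0 without and 7 with the block, against 1661 and 5361 of the 15731 genes tested. Mbd6 had the smallest p without the block (0.35, SE 0.13 with it). Of the 24 listed, Dnmt3l was too low to test.

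Genes that supply the methyl donor and 2-oxoglutarate included 1 that rose and 2 that fell with the block among 22 (median 0.02). Among the 15731 genes tested, 406 rose and 850 fell in that fit. Mtr, methionine synthase, was at 18.8, 21.8 and 23.8 CPM in controls, against 9.01, 12.7 and 13.98 CPM in knockdowns (−0.87, SE 0.10, edgeR adjusted p = 0.0282). Mat2b, the regulatory subunit of S-adenosylmethionine synthetase, was at 53.5, 64.2 and 49.3 CPM in controls, against 31.3, 42.7 and 35.1 CPM in knockdowns (−0.62, SE 0.08, edgeR adjusted p = 0.0326). Ahcyl2, a relative of S-adenosylhomocysteine hydrolase, was at 91.1, 78.6 and 90.7 CPM in controls, against 130, 107 and 116 CPM in knockdowns (0.44, SE 0.07, edgeR adjusted p = 0.0383). None of these 3 genes overlapped between groups, and each change was larger than that of any of the 38 enzymes.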

How the data were processed

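RNA-seq of 6 libraries (3 control, 3 knockdown) was deposited by the authors as raw read counts per gene. Trimmomatic, TopHat2, HTSeq, edgeR, DESeq2 and build mm9 are named in the submitters' processing notes; the sources used here do not give their versions, the annotation or the strand setting. Tally lines that name no gene (12.1 to 15% of no feature, 0.406 to 0.509% ambiguous and 16 to 19.3% not uniquely aligned) stayed out of library sizes and tests. Groups were taken from the labels.

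From the deposited counts, genes were filtered (edgeR 4.0.16 in R 4.3.3, minimum count 10, minimum total 15), scaled by TMM and tested with edgeR's quasi-likelihood test, with Benjamini-Hochberg adjustment over 15731 genes and a threshold of 0.05, without and with the replicate number as a block. SEs were taken as the fold change over the root of F. Over all genes, deviations from group means correlated at 0.701 to 0.772 between same-numbered libraries and at −0.532 to −0.135 otherwise. The shared numbers in the labels were therefore taken to pair the libraries. Among the 38 members replicates 2 and 3 were paired less clearly. There control 2 correlated at 0.621 with knockdown 2 and 0.599 with knockdown 3, and control 3 at 0.826 with knockdown 3 and 0.423 with knockdown 2. DESeq2 1.42.0, limma 3.58.1, other scalings and filters and left-out libraries were the alternatives. The procedure was tested on simulated data. The test of the replicate number and the 12 oxygen-regulated genes were added after the data were seen.

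Every member is named with its fold change. Values by library are given for members called in either fit, for the smallest p of each role class and for members whose groups do not overlap. Companion genes are named if called in either fit, or else for the smallest p of their list. A result for the CoREST and H3K9 partners is not reported here. The members and lists were chosen with earlier results of these data known. Positions, exon lengths and 3′ UTRs are from GENCODE M21 (GRCm38), matched by name, and promoters from RefSeq (GRCm38.p6).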

Additional observations from a re-analysis of the deposited data

How the results depend on the processing

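Without the replicate block 0 of the 38 enzymes were called under every normalization, filter, tool and left-out library tried. The count over all genes was 1, went to 0 with library totals, to 568 with DESeq2, and was 0 to 0 over the fits that left out 1 library. With the replicate block, where pairing rests on the labels' shared numbers and the correlations given above, the members called were 2 with TMM, RLE and upper-quartile factors, no filter, a mean of at least 5 CPM and limma-voom, each time Phf8 and Tet2, 1 (Kdm4b) with library totals and 5 with DESeq2 (also Ash1l, Jmjd6 and Kdm4b). Over all genes the replicate block gave 1256 calls with TMM, 1342 with RLE, 1350 with upper-quartile factors, 1276 with library totals, 1598 with no filter, 1440 at 5 CPM, 3440 with DESeq2 and 1394 with limma-voom. Leaving out both libraries of replicate 1, 2 or 3 left 0, 53 and 1272 calls; these fits have fewer samples. The members called by replicate number were 8, or 9 (with Tet1) with library totals or no filter. No called value changed sign. Depth was high for all 38 enzymes, so that 3 libraries a group limit the precision more than counting does.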
